A study of Homo sapiens with 6 samples.

Results

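Alpha- and beta-tubulin are the paired subunits of microtubules, and human cells encode each of them in several genes, called isotypes. The isotypes described here were chosen by gene symbol as the 10 rows named TUBA1A, TUBA1B, TUBA1C and TUBA4A for alpha-tubulin and TUBB, TUBB2A, TUBB2B, TUBB3, TUBB4B and TUBB6 for beta-tubulin, out of 58735 rows in the count table. RD cells, an established line of embryonal rhabdomyosarcoma (a tumor of the skeletal muscle lineage), were transduced with lentivirus carrying either a scrambled shRNA (n = 3) or an shRNA against TAK1 (n = 3), and their poly(A) RNA was sequenced. TAK1 is a kinase that relays cytokine and stress signals, and its gene is MAP3K7. Both groups carry the lentiviral vector, all 6 samples come from 1 cell line and the knockdown rests on 1 TAK1 construct, so an effect of that construct and an effect of losing TAK1 cannot be told apart. Because the samples are bulk RNA, fewer cells of a kind and less RNA per cell cannot be told apart either.

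Microtubules grow by adding alpha-beta dimers and shrink by losing them, and they form the mitotic spindle in dividing cells and long parallel arrays in differentiating muscle cells. The isotypes differ most in their acidic C-terminal tails, where enzymes add or remove amino acids and where motors and associated proteins bind. Cells also sense free tubulin: when dimers are in excess, the protein TTC5 binds the first residues of tubulin as it leaves the ribosome, and the CCR4-NOT deadenylase then degrades the mRNA being translated.

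Total counts ran from 28839898 to 34469323 per sample. MAP3K7 was present at 77.9, 76.5 and 77.6 CPM (a gene's count scaled to 1e+06 normalized counts in the library) in scrambled replicates 1, 2 and 3 and at 30.5, 33.6 and 29.9 CPM in the TAK1 replicates. Its log2 fold change was -1.30 (SE 0.06, adjusted p = 4.45e-14). Unless another setting or test is named, the adjusted p of a gene comes from the quasi-likelihood test of edgeR. That test was fitted across 15935 genes and adjusted over them by the Benjamini-Hochberg procedure. Of 9 markers of skeletal muscle, 8 passed the low-count filter, with 4 called higher and 1 called lower after knockdown (11.8% and 11.3% of all tested genes were called higher and lower). MYOD1, a myogenic transcription factor, averaged 263 ± 8.03 CPM in scrambled and 339 ± 16.7 CPM in TAK1 shRNA samples (SD, n = 3). The sarcomere gene TTN and the fusion gene MYMK rose by 1.06 and 0.98 on the log2 scale, and CHRNA1, an acetylcholine receptor subunit and the most abundant marker, fell from 921 to 700.3 CPM. The part of these muscle genes in the tubulin results was not tested. Of 13 markers of immune, epithelial, endothelial, glial, melanocytic and liver cells, 0 passed the filter, and the highest count of any in a sample was 15.

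The ends of the coding sequences are shown because the opening encodes the residues that TTC5 reads and the final bases encode the tail. They are taken from GENCODE 44 transcripts on GRCh38, 5′ to 3′, with the first 12 bases of the coding sequence in capitals in the openings and the stop codon in capitals in the closings. The openings of 4 isotypes read as follows.
TUBA1A opening: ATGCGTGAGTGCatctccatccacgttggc
TUBA4A opening: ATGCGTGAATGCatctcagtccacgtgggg
TUBB4B opening: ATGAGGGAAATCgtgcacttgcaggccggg
TUBB6 opening: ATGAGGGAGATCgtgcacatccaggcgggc
TUBA1A, TUBA1B and TUBA1C share their first 12 bases, a set of 3. TUBB shares them with TUBB4B and TUBB3 with TUBB6, whereas TUBB2A, TUBB2B and TUBA4A each have their own. These base differences are synonymous within each family. The 12 bases encode methionine, arginine, glutamate and cysteine in every alpha isotype, and isoleucine in place of cysteine in every beta isotype. The closing bases of 4 isotypes are shown next.
TUBA1C closing: gacggagaggatgagggtgaagagtatTAA
TUBA4A closing: tatgaggacgaggatgagggagaagaaTAA
TUBB4B closing: gaggaggaggctgaggaggaggtggccTAG
TUBB6 closing: gaggatgaggaagaggagatcgatggaTAG
Every closing shown holds the glutamate codons gag or gaa.

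All 10 isotypes passed the low-count filter. A gene was called when its adjusted p lay under 0.05 and its log2 fold change lay 0.25 or more from 0. By that rule 1 isotype was called up, where 11.8% of all tested genes were. A further 3 were called down, against 11.3% of all tested genes. By adjusted p with no fold threshold, 1 isotype was higher (16.1% of all genes) and 6 were lower (17.2% of all genes). The CPM of the groups did not overlap for 9 of the 10, which held for 43.9% of all genes. The median log2 fold change of the 10 was -0.19, and that of all genes was 0.02. The members' share of all counts was 0.534%, 0.535% and 0.523% in the scrambled samples and 0.503%, 0.485% and 0.485% in the TAK1 shRNA samples, without overlap.

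TUBA1A encodes an alpha-tubulin best known from developing neurons, and mutations in it cause cortical malformations. The gene spans 49184686 to 49189080 of chromosome 12 (GRCh38) on its minus strand, and its canonical transcript has 4 exons. It was measured at 435, 446 and 469 CPM in the scrambled replicates and at 568, 594 and 616 CPM in the TAK1 replicates. Every knockdown sample lay above every control sample. The log2 fold change was 0.40 (SE 0.04, adjusted p = 1.36e-07), from 450.0 ± 17.5 to 593 ± 24.0 CPM (SD, n = 3), or 31.7% higher. TUBA1A was the isotype called up.

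TUBA1B encodes the alpha-tubulin found in most dividing cells and lies on the same strand, from 49127782 to 49131397. Its values were 1104, 1088 and 1079 CPM in scrambled and 1027, 921 and 940 CPM in TAK1 shRNA samples. The groups did not overlap, and the change of -0.18 (SE 0.04, adjusted p = 0.00211) passed the adjusted p but not the fold threshold. TUBA1C, a closely related alpha isotype on the plus strand from 49188736 to 49274600, was measured at 257, 274 and 256 CPM in scrambled samples and at 213, 202 and 209 CPM after knockdown. It fell by 0.33 on the log2 scale (SE 0.05, adjusted p = 3.01e-06), from 262 ± 10.3 to 208 ± 5.49 CPM (SD, n = 3).

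TUBA4A encodes an alpha-tubulin whose coding sequence lacks the final tyrosine codon that TUBA1C ends with, as the closings above show. It lies on chromosome 2 from 219249710 to 219277902, on the minus strand. The scrambled samples held 319, 316 and 314 CPM and the TAK1 samples 280, 260 and 267 CPM. The groups did not overlap. The log2 fold change was -0.23 (SE 0.04, adjusted p = 0.00018), short of the fold threshold, and it reached -0.26 without TAK1 replicate 1.

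**Figure D1:**
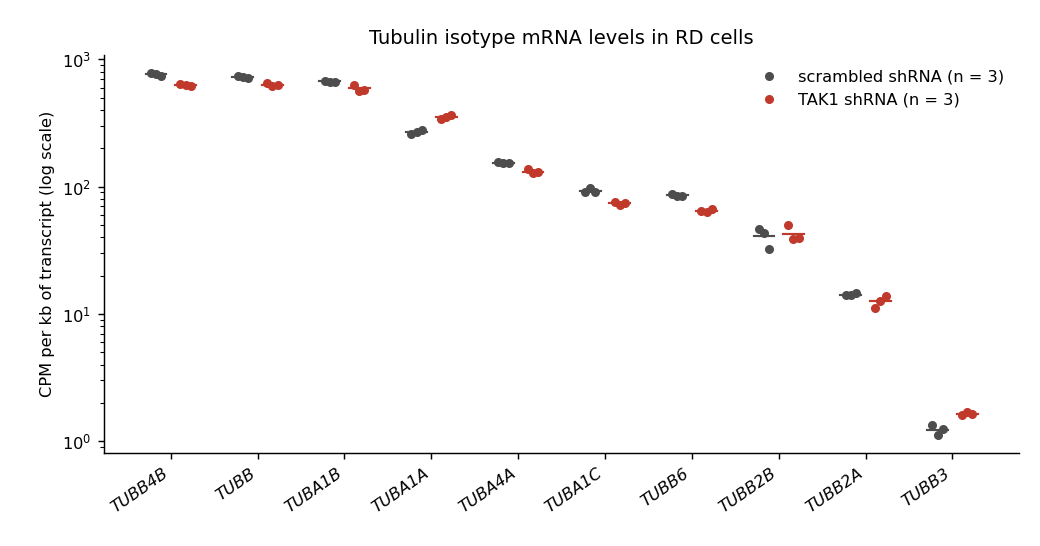
Level of each tubulin isotype in each sample, in CPM per kilobase of transcript on a log axis, with scrambled and TAK1 shRNA samples as separate points. TUBA1A lies higher in every TAK1 shRNA sample than in any scrambled sample, and TUBB2B is the isotype whose groups overlap.

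TUBB encodes the most widely expressed beta-tubulin and lies on chromosome 6 from 30717435 to 30725538, on the plus strand. It was measured at 1850, 1822 and 1784 CPM in scrambled and at 1641, 1552 and 1588 CPM in TAK1 shRNA samples. The log2 fold change was -0.19 (SE 0.04, adjusted p = 0.000408), past the adjusted p but under the fold threshold. TUBB4B, a beta isotype also found in cilia, lies on chromosome 9 from 137241287 to 137243707, on the plus strand. Its values were 1228, 1200 and 1166 CPM in scrambled and 998, 982 and 962 CPM in TAK1 shRNA samples. TUBB4B fell by 0.29 on the log2 scale (SE 0.04, adjusted p = 2.92e-06), from 1198 ± 30.7 to 981 ± 18.02 CPM (SD, n = 3). Scaled by library size alone, its change was -0.24, under the fold threshold.

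TUBB6 encodes a beta isotype that has been linked to microtubule disorganization in diseased and regenerating muscle. It lies on chromosome 18 from 12307669 to 12344320, on the plus strand. The scrambled samples held 165, 158 and 159 CPM and the TAK1 samples 121, 118 and 126 CPM. No knockdown sample reached the control range. TUBB6 fell by 0.40 on the log2 scale (SE 0.05, adjusted p = 3.2e-07), and decreased by 24.3%. AFG3L2, a gene on the opposite strand whose exons overlap those of TUBB6, rose from 67.7 to 92.6 CPM (log2 fold change 0.45, SE 0.05, adjusted p = 3.67e-07); its part in the TUBB6 counts was not tested.

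The low-abundance beta isotypes gave no call. TUBB2A (chromosome 6, minus strand, 3153497 to 3157544) was measured at 22.7, 22.6 and 23.5 CPM in scrambled and at 17.95, 20.4 and 22.4 CPM in TAK1 shRNA samples (log2 fold change -0.18, SE 0.08, adjusted p = 0.11). Without TAK1 replicate 3 the value was -0.27, with an adjusted p of 0.0243 that passed, and without TAK1 replicate 1 it was -0.10 (adjusted p = 0.399). TUBB2B, its neighbour from 3223324 to 3231730 on the same strand, was measured at 89.5, 83.6 and 61.9 CPM in scrambled and at 95.8, 74.7 and 75.6 CPM in TAK1 shRNA samples. The groups overlapped, and the log2 fold change was 0.07 (SE 0.10, adjusted p = 0.649), with a sign that turned without scrambled replicate 3 (-0.08) and without TAK1 replicate 1 (-0.06). PSMG4, whose exons overlap TUBB2B on the opposite strand, rose from 5.82 to 7.77 CPM (adjusted p = 0.0249). It holds no 75-base window of the canonical TUBB2B transcript, and its part in the TUBB2B counts was not tested. Mutations in TUBB2B, as in TUBA1A, cause cortical malformations.

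TUBB3, a marker of neurons also measured in many tumors, lies on chromosome 16 from 89921392 to 89938761 on the plus strand. Its measured level was low, at 2.29, 1.91 and 2.11 CPM in scrambled and 2.74, 2.92 and 2.79 CPM in TAK1 shRNA samples. The groups did not overlap, but the log2 fold change of 0.42 had a SE of 0.20 and an adjusted p of 0.107. Of the 75-base windows of its transcript, 92.6% are shared with other genes, since an overlapping gene on the same strand covers it. The part of that overlap in the low TUBB3 counts was not tested.

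**Figure D2:**
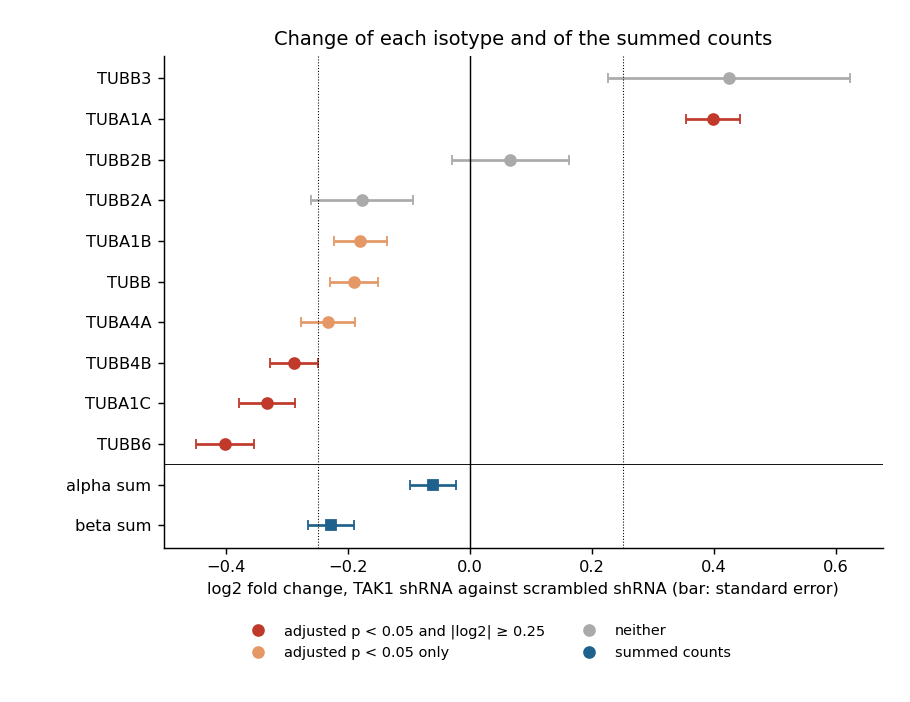
Log2 fold change of each isotype and of the summed alpha and beta counts, TAK1 shRNA against scrambled shRNA, with standard errors as bars and dotted lines at the fold threshold. TUBA1A lies at 0.40 and TUBB6 at -0.40, and the interval of TUBB3 is the widest.

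Summing the isotypes of a family avoids the question of which near-identical gene received a counted read. Whether reads matching several isotypes were counted at all is not given, and the sums may depend on it. The 4 alpha isotypes together were measured at 2116, 2124 and 2119 CPM in scrambled and at 2089, 1978 and 2032 CPM in TAK1 shRNA samples, a log2 fold change of -0.06 (SE 0.04, adjusted p = 0.238). The 6 beta isotypes together were measured at 3356, 3288 and 3197 CPM and then at 2877, 2750 and 2776 CPM. The log2 fold change of the beta sum was -0.23 (SE 0.04, adjusted p = 3.1e-05), below the fold threshold. The summed TUBA1A, TUBA1B and TUBA1C counts did not pass the test, with a log2 fold change of -0.03 (SE 0.04, adjusted p = 0.569).

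Levels between genes are compared as CPM per kilobase of the canonical transcript. In scrambled samples the order was TUBB4B (766), TUBB (723), TUBA1B (670), TUBA1A (269), TUBA4A (154), TUBA1C (93.0), TUBB6 (85.5), TUBB2B (40.7), TUBB2A (14.2) and TUBB3 (1.23 CPM per kilobase), and no neighbours overlapped. In TAK1 shRNA samples TUBB (634) stood first, ahead of TUBB4B (627) and TUBA1B (592), and the TUBB4B samples overlapped both of the others. The order of the rest was the same. TUBA1A, at 355 CPM per kilobase, came closer to TUBA1B.

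Within the alpha pool the share of TUBA1A was larger in every knockdown sample than in any control sample. It held 21.95%, 22.5% and 23.6% of the per-kilobase alpha pool in scrambled samples and 28.7%, 31.7% and 32.0% in TAK1 shRNA samples, a difference of 8.15 percentage points between the means. TUBA1B held 56.5% ± 0.709 and 51.4% ± 1.72, TUBA4A 13.01% ± 0.117 and 11.4% ± 0.129, and TUBA1C 7.83% ± 0.309 and 6.41% ± 0.0262 (SD, n = 3). In the beta pool the means differed by at most 1.61 percentage points. TUBB held 44.3% ± 0.319 and 45.8% ± 0.442, and TUBB4B 47.0% ± 0.0331 and 45.4% ± 0.666. TUBB6 held 5.24% ± 0.0929 in scrambled and 4.68% ± 0.178 in TAK1 shRNA samples. The groups did not overlap for 9 of the 10 shares, with p = 0.1 for each by an exact two-sided permutation test (0.111 after adjustment over the 10), and a design of 3 against 3 cannot go lower. No matching figure over all genes was computed. Shares within a pool are not independent, since a larger share of one isotype means smaller shares of others. The TUBB share was larger after knockdown although its own log2 fold change was -0.19.

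**Figure D3:**
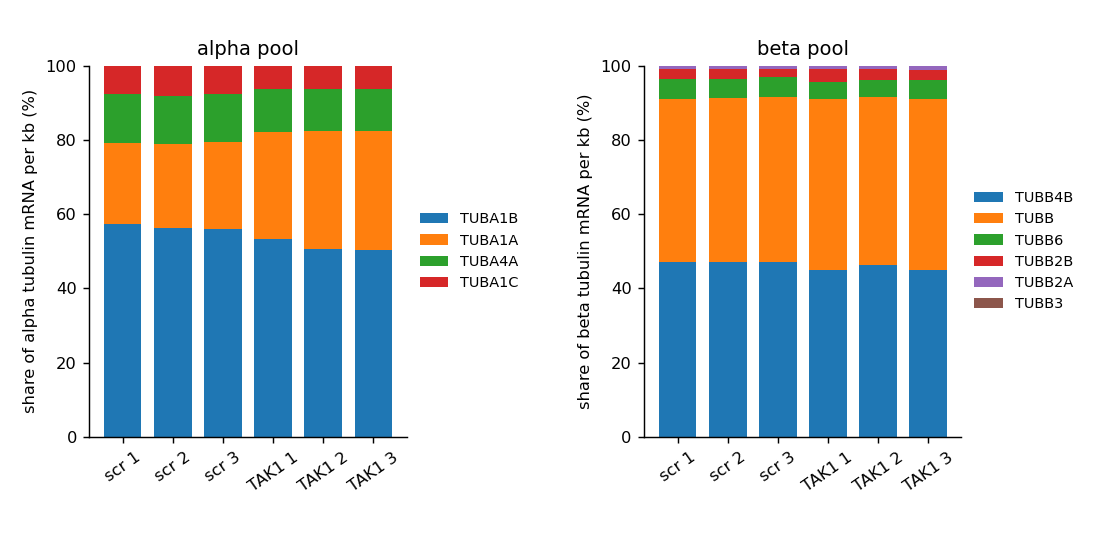
Share of each isotype in the alpha pool and in the beta pool, in percent of the summed counts per kilobase, by sample. The TUBA1A share lies between 21.95% and 23.6% in scrambled and between 28.7% and 32.0% in TAK1 shRNA samples.

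Ratios within a sample do not depend on scaling between samples. On the log2 scale the TUBA1A to TUBA1B ratio was -1.38, -1.33 and -1.24 in scrambled samples and -0.89, -0.67 and -0.65 in TAK1 shRNA samples. The TUBA1A to TUBA1C ratio averaged 1.53 and 2.26. The alpha pool relative to the beta pool averaged -0.46 in scrambled and -0.26 in TAK1 shRNA samples, and the TUBB6 to TUBB ratio averaged -3.08 and -3.29. The groups did not overlap for 4 of the 5 ratios, with exact permutation p = 0.1 (0.125 adjusted over the 5). The TUBB2A to TUBB2B ratio overlapped (exact p = 0.6).

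The isotypes differ in how easily their single reads can be told apart. The libraries were paired-end, and the windows below take no account of the mate of a read. Of all 75-base windows of the canonical transcript, 56.0% of TUBB2A, 46.8% of TUBB2B, 42.2% of TUBA1B, 33.0% of TUBA1A and 18.1% of TUBA1C also occur in another of the 10. TUBA4A, TUBB and TUBB6 share 0% with the other isotypes. Counting windows in any annotated gene, in either orientation, the values were 77.2% for TUBA1B, 31.2% for TUBA4A, 24.0% for TUBB and 0% for TUBB6. An antisense gene with no row of its name in the count table held 66.6% of the TUBA1B windows. STK16, on the opposite strand, held 28.1% of the TUBA4A windows and had a log2 fold change of 0.18 (adjusted p = 0.0746). Beyond AFG3L2 and PSMG4, the other tested genes with exons overlapping an isotype were MDC1 (TUBB) and BPHL (TUBB2A). Their log2 fold changes were -0.07 and 0.21 (adjusted p = 0.29 and 0.205), without a call. The coding sequences of TUBB2A and TUBB2B are 98.1% identical, those of TUBA1A and TUBA1B 97.2% and those of TUBA1A and TUBA1C 95.9%, whereas TUBB and TUBB6 are 81.0% identical. How the counting treated reads with several matches is not given in the sources used here, so the split among TUBA1A, TUBA1B and TUBA1C and between TUBB2A and TUBB2B is uncertain. The exons of TUBA1A and TUBA1C also overlap on opposite strands, and strand use in the counting is not given. A set of 39 tubulin pseudogene rows held 285 counts over all samples, against 960898 on the 10 isotypes.

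**Figure D4:**
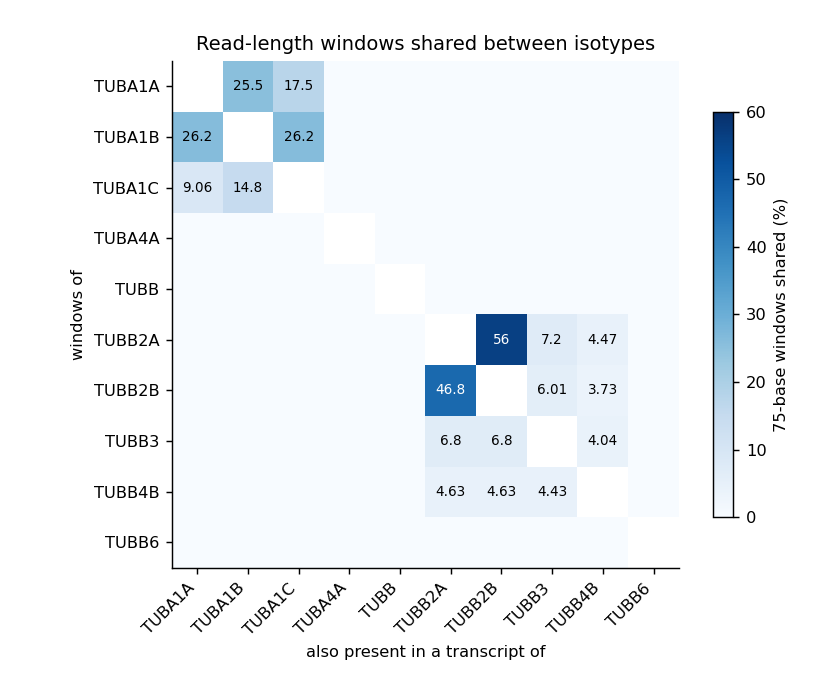
Percent of the 75-base windows of each isotype's transcript that occur in each other isotype. The TUBA1 genes and the TUBB2 genes form separate blocks, with 25.5% of TUBA1A windows found in TUBA1B.

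Of 13 other tubulin genes, 7 passed the filter and 0 were called, by edgeR and by DESeq2 alike, although 3 had an unadjusted p under 0.05. Without TAK1 replicate 1, 2 were called up. TUBG1, the gamma-tubulin that nucleates microtubules, had a log2 fold change of -0.15 (SE 0.05, adjusted p = 0.0282), past the adjusted p but not the fold threshold. The epsilon-tubulin gene TUBE1 and the delta-tubulin gene TUBD1, both centriolar, had log2 fold changes of 0.21 (adjusted p = 0.0532) and 0.26 (adjusted p = 0.0861). The values for TUBG2, TUBA3E, TUBB1 and TUBA3D were 0.21, 0.12, 0.39 and -0.28, with adjusted p of 0.126, 0.293, 0.268 and 0.534. TUBAL3 had 0 counts.

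The folding machinery takes each new tubulin chain from prefoldin to the CCT chaperonin and then to the cofactors that build the dimer. Its list of 23 names gave 24 tested rows, as TBCE appears in 2, with 1 called up and 4 down (11.8% and 11.3% of all genes) and a median log2 fold change of -0.14. By adjusted p alone, 11 rows were lower and 2 higher. The prefoldin subunits PFDN5 and PFDN1 fell by 0.54 (SE 0.06, adjusted p = 4.76e-08) and by 0.48 (SE 0.07, adjusted p = 3.86e-06) on the log2 scale. PFDN5 averaged 116 CPM in scrambled and 80.2 CPM in TAK1 shRNA samples. TBCB, a cofactor that binds alpha-tubulin, fell by 0.28. TBCE, which acts at the dimer-forming step, rose by 0.86 in one row, from 7.30 to 13.2 CPM, and had a value of -0.11 (adjusted p = 0.611) in the other.

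Of the 13 autoregulation genes, all tested, 2 were called up and 2 down (11.8% and 11.3% of all genes), with a median of 0.03. Without TAK1 replicate 1, and likewise without TAK1 replicate 2, 1 was down. TTC5, named outside the rule for naming genes, had a log2 fold change of 0.01 (SE 0.08, adjusted p = 0.965), at 21.8 CPM in scrambled and 21.9 CPM in TAK1 shRNA samples. SCAPER, which links TTC5 to the deadenylase and was named in the same way, had a log2 fold change of 0.04 (SE 0.08, adjusted p = 0.757). Among the CCR4-NOT genes, CNOT6L rose by 0.46 and TNKS1BP1 by 0.32, whereas CNOT10 fell by 0.33 and CNOT6 fell by 0.26 on the log2 scale. CNOT6 and CNOT6L encode alternative catalytic subunits, and they moved in opposite directions.

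Of 26 genes that modify tubulin tails or the alpha-tubulin lysine, 17 were tested, with 6 called up and 1 down (11.8% and 11.3% of all genes) and a median of 0.12. SIRT2, a deacetylase of that lysine, rose by 0.53 (SE 0.05, adjusted p = 1.4e-09), from 231 to 335 CPM. VASH1, which removes the C-terminal tyrosine of alpha-tubulin, fell by 0.42 (SE 0.05, adjusted p = 7.38e-08), from 182 to 136 CPM. The ligases TTLL3 and TTLL1, which add glycine and glutamate in that order, rose by 0.94 and 0.54 from low levels of 1.52 and 3.12 CPM.

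Of 34 lattice and end-binding genes, 31 were tested, with 4 called up and 3 down (11.8% and 11.3% of all genes) and a median of -0.02. Without TAK1 replicate 1, 1 was down. The end-binding proteins MAPRE3 and MAPRE2 moved apart, at 0.64 and -0.47 on the log2 scale, while MAP2 and EML1, which bind along the lattice, each rose by 0.36. Among 16 destabilizers and severing enzymes, 12 were tested, with 2 up and 3 down (11.8% and 11.3% of all genes) and a median of -0.03. The katanin-like genes KATNAL2 and KATNAL1 rose by 0.78 and 0.50, and the depolymerizing kinesin KIF2A and the severing-family gene FIGNL1 fell by 0.46 and by 0.36. All 11 genes of the gamma-tubulin ring complex list were tested, with 1 called up and 2 down (11.8% and 11.3% of all genes) and a median of -0.10. MZT1 and TUBGCP3 fell by 0.50 and by 0.27, and TUBGCP6 rose by 0.37. TUBGCP6 was measured at 47.5, 57.6 and 39.3 CPM in the TAK1 replicates, and the list had 0 up without TAK1 replicate 2.

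**Figure D5:**
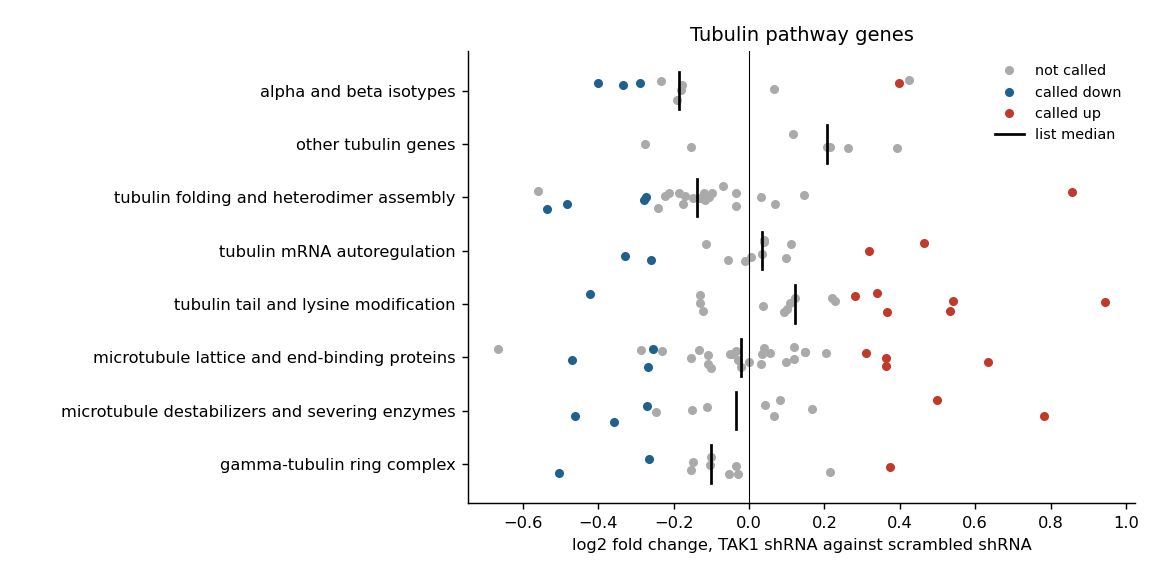
Log2 fold change of each tested gene in 8 lists of tubulin and microtubule genes, with called genes in color and the list median as a bar. The folding list lies mostly below 0, with a median of -0.14, and the tail-modification list mostly above, with a median of 0.12.

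Promoter windows from 250 bases before to 50 bases after the start were taken from RefSeq on GRCh38.p14 for all 10 isotypes, which have 15 windows, some of them overlapping. The motifs were chosen after the values had been seen, and both strands were searched; none of the motifs is contained in another. The letters CCAAT occurred in 9 of the 15 and in 34.6% of 34943 promoters. GGGCGG occurred in 9 of the 15 and in 44.9% of all, and TATAAA in 1, that of TUBB2A, and in 11.6% of all. TGANTCA, a site of AP-1, occurred in 1 (7.72% of all), and GGAATG, a site of TEAD factors, in 2 (14.0% of all). The CCAAT matches are shown for the 4 called isotypes, TUBA1A, which rose, and TUBA1C, TUBB4B and TUBB6, which fell, with the motif in capitals (ATTGG is CCAAT on the opposite strand) and each sequence on the strand of its gene.
TUBA1A, chr12:49189189-49189217, minus strand: acgtcgcttgcaCCAATcaccagtctcct
TUBA1A, chr12:49189152-49189180, minus strand: ttctctgggcagATTGGgggtctggacca
TUBA1C, chr12:49227810-49227838, plus strand: ggggacctgatcCCAATggcacaatgaca
TUBA1C, chr12:49264910-49264938, plus strand: cttttgaatccgCCAATcagcgccgcgcg
TUBB4B, chr9:137241043-137241071, plus strand: catttgaaacacCCAATggacggagcact
TUBB4B, chr9:137241109-137241137, plus strand: ggctgcggctgaCCAATaaagaccaaact
TUBB4B, chr9:137241172-137241200, plus strand: acgggggcaaggCCAATcaaacgagggag
TUBB6, chr18:12308161-12308189, plus strand: gggcccgcagccATTGGcgagcggcgggg
CCAAT also occurred in promoters of TUBB, TUBB2B and TUBB3, which were not called, and not in those of TUBA1B, TUBA4A and TUBB2A. Its part in the changes was not tested.

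TUBB4B was the isotype with the highest level per kilobase in scrambled samples. It was compared with all tested genes other than the isotypes, by the Pearson correlation of log2 CPM over the 6 samples. The most alike were NCAPH, a condensin subunit (r = 0.9996), NAV2 (r = 0.9993) and PGRMC2 (r = 0.9987). These values are a description over samples that share their libraries and a group difference.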

How the data were processed

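Poly(A) RNA of RD cells was sequenced with 75-base paired-end reads in 3 scrambled and 3 TAK1 shRNA samples, grouped by their labels. The authors aligned the reads to GRCh38 (hg38) with STAR after CASAVA and deposited raw counts per gene; the counter, annotation release, strand use and treatment of multiply matching reads are not given in the sources used here. Of the per-sample columns, 0 were left unused. Nothing says whether replicates came from separate cultures beyond their numbers, so p-values measure the spread between these samples.

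Counts were filtered with filterByExpr, normalized by TMM and tested with the quasi-likelihood test of edgeR 4.0.16 in R 4.3.3, with Benjamini-Hochberg adjustment over 15935 genes. Calls needed adjusted p < 0.05 and a log2 fold change 0.25 or more from 0. For the summed counts the same fit was run with each sum in place of its isotypes. Fits without a sample or with another filter were adjusted over their own tested genes. Each SE is the size of the log2 fold change over the root of its F statistic. The tested genes held 99.904% to 99.924% of the counts, and the biological coefficient of variation was 5.67%. The alternatives were DESeq2 1.42.0, voom of limma 3.58.1, other normalizations, filters, fold thresholds, near-identical genes summed, shares of raw counts, a replicate block and each sample left out. The tests were checked on simulated data.

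Transcript lengths, shared windows and coding sequences came from GENCODE 44, promoters from RefSeq. Named were all 10 isotypes, the tested other tubulin genes, MAP3K7 and the 4 called genes with the largest change in each list. By the same rule, the 3 genes outside the 10 isotypes that were most like the isotype of highest level were named. AFG3L2, PSMG4, STK16, MDC1, BPHL, TTC5 and SCAPER were named outside this rule, after their values were seen. The members and lists were chosen with earlier results of these data known.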

Additional observations from a re-analysis of the deposited data

How the results depend on the processing

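The isotype counts (1 up, 3 down) depended on the fold threshold. With none, 6 isotypes were down, and at an absolute log2 fold change of 0.5, 0 were up and 0 down, 1415 genes were called in all and 8 genes of the pathway lists, against 31. With the near-identical genes summed, 0 were up, because TUBA1A is then part of a sum. Leaving out each sample gave 3264 to 3741 called genes, 3 to 4 isotypes down and 25 to 33 genes of the pathway lists. Scaling by library size alone put 62.9% of calls upward, against 51.0%, and 2 of the other tubulin genes were called up, with 2 folding genes down and 1 down in each of the autoregulation, lattice and ring-complex lists.

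Over 14 alternatives TUBA1A ranged from 0.36 to 0.45, and over 15 TUBB6 ranged from -0.44 to -0.35 on the log2 scale. The summed alpha counts ranged from -0.08 to -0.01 and did not pass under any of 14, and the summed beta counts ranged from -0.25 to -0.18, with adjusted p from 7.06e-10 to 0.000901 (edgeR, DESeq2 or limma). In raw counts in place of counts per kilobase, the TUBA1C share changed by -2.14 points, against -1.43.

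Same-numbered samples of the groups had correlations of 0.134, 0.0707 and 0.0479 in their deviations, so the numbers were not taken as pairs, and not every sample correlated best with its own number. With the replicate number as a block, 3790 genes were called, against 3684, with 1 isotype up and 3 down. The TUBB3 result rests on few reads, with 60 to 103 counts per sample.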
